A study of Mus musculus with 16 samples.

Results

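Chga, Chgb, Cck and Sct are 4 transcripts of enteroendocrine cells, the scattered hormone-secreting cells of the gut epithelium. They were taken by gene symbol from the authors' deposited table, and all 4 were found among its 2438 genes. The table came from duodenal epithelium of mice in a study of diet-induced obesity, and the comparison asked which transcripts differ when the intestinal epithelium lacks EphB4, a receptor tyrosine kinase. The control group was 9 libraries from Ephb4 fl/fl mice (flox, replicates 1 to 7, 9 and 10), and the other group was 7 libraries from Ephb4-IKO mice (KO, replicates 1 to 5, 7 and 8), in which the gene was deleted in intestinal epithelial cells. All mice of both groups were 8 weeks old at the start and had eaten a high fat diet for 19 weeks, so no group on another diet was compared. Which Cre line was used, and the promoter that drives it, is not stated in the labels used here. The labels name the sample duodenal epithelium, while the series' design text speaks of proximal small intestinal tissue.

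Enteroendocrine cells store peptide hormones in dense-core granules and release them when nutrients reach the lumen. Chromogranin A (Chga) and chromogranin B (Chgb) are acidic proteins of the granule core and are used as general markers of these cells. Cholecystokinin (Cck) is released on fat and protein and drives gallbladder contraction, pancreatic enzyme secretion and satiety, while secretin (Sct) is released on acid and drives bicarbonate secretion. All 4 genes are also expressed outside the gut, the chromogranins in islets and neurons and Cck in the brain.

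The values are normalised read counts, that is, reads per gene divided by 1 size factor per library. The table held only genes that the authors had called at an adjusted p under 0.05 on these same libraries. The direction of each member was therefore fixed by the selection, and the tests below are no independent support for it. The targeted gene Ephb4 ran from 103 to 353.8 in flox and from 23.3 to 84.7 in KO, with no overlap. The listed genes held 4237178 to 5316273 reads per flox library and 3592468 to 4555872 per KO library, and the depth over all genes is unknown. The labels do not tie libraries to single mice, so p-values measure the spread between libraries. In bulk RNA, fewer enteroendocrine cells and less transcript per cell cannot be told apart.

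The sequences before the transcription start are shown because the 4 members varied together across the flox libraries, as described below. They are RefSeq sequences of GRCm38.p6, the build of the deposited table, and all 4 symbols matched. Capitals mark TGACG on either strand, the core of the cyclic AMP response element, and CANNTG, the E-box that basic helix-loop-helix factors such as NEUROD1 bind. For Chga, Cck and Sct the 150 bases before the RefSeq start are given. The RefSeq start of Chgb lies 364 bases inside the gene as the table gives it, in a 5′ untranslated exon of GENCODE M21, so 30 bases around its element are shown.

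Chga (chr12:102554791-102554940, plus strand): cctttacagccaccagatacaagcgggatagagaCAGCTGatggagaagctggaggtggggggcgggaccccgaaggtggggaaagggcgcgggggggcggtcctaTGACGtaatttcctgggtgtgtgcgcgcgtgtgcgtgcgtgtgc

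Chgb (chr2:132781559-132781588, plus strand, 5′ UTR): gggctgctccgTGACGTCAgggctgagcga

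Cck (chr9:121495695-121495844, minus strand): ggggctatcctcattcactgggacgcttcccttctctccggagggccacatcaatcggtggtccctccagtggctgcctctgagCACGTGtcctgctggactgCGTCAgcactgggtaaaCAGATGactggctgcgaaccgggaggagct

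Sct (chr7:141279134-141279283, minus strand): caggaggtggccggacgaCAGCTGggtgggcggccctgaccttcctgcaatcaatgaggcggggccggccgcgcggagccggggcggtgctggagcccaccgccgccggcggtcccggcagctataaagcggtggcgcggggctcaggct

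Within these 150-base windows, TGACG or its complement CGTCA was found for Chga, Chgb and Cck, and of 32851 RefSeq promoter windows of the same length 13.3% held it. In Chga it began 44 bases before the start, and in Cck the complement began 47 bases before the start. In Chgb the core was part of the full palindrome TGACGTCA, which began 72 bases before the start and was held by 1.36% of windows. An E-box was found for Chga, Cck and Sct, against 47.7% of windows. Cck held 2 of them, CACGTG and CAGATG, and in Chga and Sct the letters were CAGCTG. No TGACG was found for Sct. Sct was the only member with TATAAA in the window, held by 7.57% of windows. The GC box GGGCGG or its complement, not marked above, was found for Chga, Chgb and Sct, against 28.6% of windows. These are matches of letters and not measured binding sites. Whether they have a part in the joint variation of the members was not tested.

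The granule protein transcript Chga (ENSMUSG00000021194, 12:102554969-102565028) fell in KO. Its lowest, median and highest values were 873.3, 1242 and 1802 normalised counts in flox, and 690.3, 841.9 and 1065 in KO. The groups overlapped: 7 of 9 flox libraries lay above every KO library, and flox replicates 1 and 2 lay among the KO values. The means were 1255 ± 285 in flox (SD, n = 9) and 890.3 ± 151 in KO (SD, n = 7), a 1.41-fold difference. On the scale of log2(normalised count + 1), limma gave -0.48 ± 0.14 (SE) for KO minus flox with an adjusted p of 0.0393. The two-sided exact permutation p was 0.00708 over all 11440 assignments of 9 and 7 libraries.

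Chgb (ENSMUSG00000027350, 2:132781278-132795079) had the most reads of the 4, with values of 1305, 1803 and 2732 in flox (lowest, median, highest) and 1067, 1369 and 1663 in KO. Here too 7 of 9 flox libraries exceeded all KO libraries, and flox replicates 1 and 2 were the exceptions. The means were 1897 ± 463 (SD, n = 9) and 1362 ± 213 (SD, n = 7), 1.39-fold apart. The limma difference was -0.45 ± 0.14 (SE) with an adjusted p of 0.0534, just above the threshold, and the exact permutation p was 0.0118. Chgb was thus called by the authors' deposited table, with an adjusted p of 0.0150, and not by limma.

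The hormone transcript Cck (ENSMUSG00000032532, 9:121489824-121495694) fell in KO. Its values were 778.7, 1007 and 1444 in flox (lowest, median, highest) and 531.7, 757.8 and 957.4 in KO. KO replicates 5 and 7, at 539.7 and 531.7, were the lowest, and 5 of 7 KO libraries lay under every flox library. Means were 1009 ± 189 (SD, n = 9) and 734.8 ± 166 (SD, n = 7), a 1.37-fold difference. The limma difference was -0.47 ± 0.13 (SE) with an adjusted p of 0.0392, and the exact permutation p was 0.00446.

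Sct (ENSMUSG00000038580, 7:141278330-141279133) had the largest spread relative to its mean of the 4 in both groups. In flox its values were 479.1, 800.0 and 1537 (lowest, median, highest), and in KO 370.4, 480.5 and 746.7. Only 5 of 9 flox libraries lay above every KO library, and the coefficient of variation was 40.0% in flox and 27.1% in KO, against 18.7% and 22.6% for Cck. The means of 797.2 ± 319 (SD, n = 9) and 515.0 ± 140 (SD, n = 7) were 1.55-fold apart, the widest fold of the 4. The limma difference was -0.59 ± 0.21 (SE) with an adjusted p of 0.0997 and an exact permutation p of 0.0243, so Sct passed the authors' test, with an adjusted p of 0.0283 in their deposited table, and not limma.

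**Figure D1:**
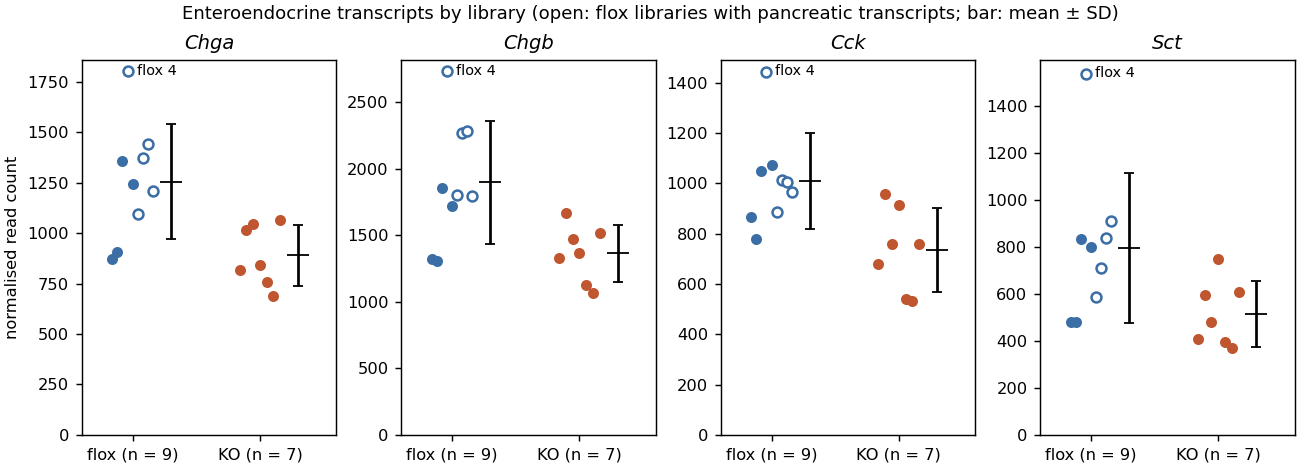
Normalised read counts (y axis, from 0) of the 4 members in each flox and KO library, with the mean ± SD of each group beside the points. Open points are the flox libraries with pancreatic transcripts. Flox replicate 4 was the highest library for every member, and all 7 KO libraries lay under the flox median of each member.

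Several libraries kept their place across the members. Flox replicate 4 was the highest of the 16 libraries for all 4 transcripts, and KO replicates 7 and 5 were the lowest and next lowest for all 4. Flox replicates 1 and 2 ranked 10th to 14th of 16 throughout. For every member all 7 KO libraries were under the flox median, but the groups overlapped in each case, whereas 5.33% of listed genes were lower in KO with no overlap. All 7 were also under the flox median for Ephb4 and for Gip and Vil1, described below, and 6 of 7 for Cd36. The share of listed genes with all 7 under it was not counted.

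In limma 2 of the 4 members, Chga and Cck, passed as lower at an adjusted p under 0.05, where 35.1% of the 2339 listed genes fitted passed as lower. All 4 had an unadjusted p under 0.05, but they had been listed for a small p on these same libraries. Of the marker lists below, 7 of 7 enterocyte, 11 of 11 non-epithelial and 2 of 2 goblet cell genes fitted had one too. Of the exocrine pancreas genes fitted, 10 of 23 had one. The share over all genes fitted was not counted, so 4 of 4 is not read as particular to the members. On reads recovered from the table, edgeR called 3 members lower (all but Sct), where 35.1% of genes passed as lower, and DESeq2 called 4, where 53.0% did. In the authors' deposited table all 4 were lower by construction, against 7.81% of the 16488 genes they adjusted over. The members' median log2 fold change of -0.49 in that table can be set beside a median of -0.37 over all 1288 listed lower genes. Among the 546 listed lower genes with a mean of 500 to 2000 normalised counts the median was -0.35, and 44 of these had a larger fall than Sct, 88 than Chga, 102 than Chgb and 120 than Cck.

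Counts of different genes can be compared only per length of the gene model. Per kilobase, Sct was the most abundant, at 1236 ± 495 normalised counts in flox (SD, n = 9) and 798.5 ± 216 in KO (SD, n = 7). Cck followed at 773.3 ± 145 and 563.1 ± 127, then Chgb at 692.3 ± 169 and 497.3 ± 77.8, and Chga was lowest at 455.5 ± 103 and 323.0 ± 54.6. Within a library, Sct was above Cck in 16 of 16 libraries and Chgb above Chga in 16 of 16. Cck was above Chgb in 14 of 16, with 2 flox libraries the other way, and by their means these neighbours differed by less than their SD in each group. The order was the same in flox and in KO.

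The proportions of the 4 transcripts to each other did not differ detectably between the groups. A ratio taken within a library does not depend on the size factor. All 4 members were listed as lower on these same libraries, so the selection made small differences in their ratios more likely. Across the 6 pairs, the mean log2 ratio moved by 0.0106 to 0.131 in size between flox and KO, and none of the 6 passed an exact permutation test (smallest p 0.371, adjusted p 0.784 over the 15 ratios tested). The tightest was Chga over Chgb, at -0.59 ± 0.10 in flox (SD, n = 9) and -0.62 ± 0.09 in KO (SD, n = 7), a difference of -0.03 ± 0.05 (SE). The largest was Chgb over Sct, at 1.30 ± 0.29 and 1.43 ± 0.27, a difference of 0.13 ± 0.14 (SE). Flox replicate 4 bore on the ratios to Sct: without it the difference was 0.07 for Chgb over Sct, 0.05 for Chga over Sct and 0.05 for Cck over Sct. Without the 5 flox libraries with pancreatic transcripts the largest was Chgb over Cck at 0.19 (exact permutation p 0.0606), which was 0.02 over all libraries, and Chga over Chgb was -0.11 (exact permutation p 0.0758). The hormones set against the granule proteins, as the mean log2 of Cck and Sct minus that of Chga and Chgb, differed by -0.06 ± 0.10 (SE) with an exact permutation p of 0.556. The larger fold of Sct was therefore not distinguishable from those of the other members at this spread.

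**Figure D2:**
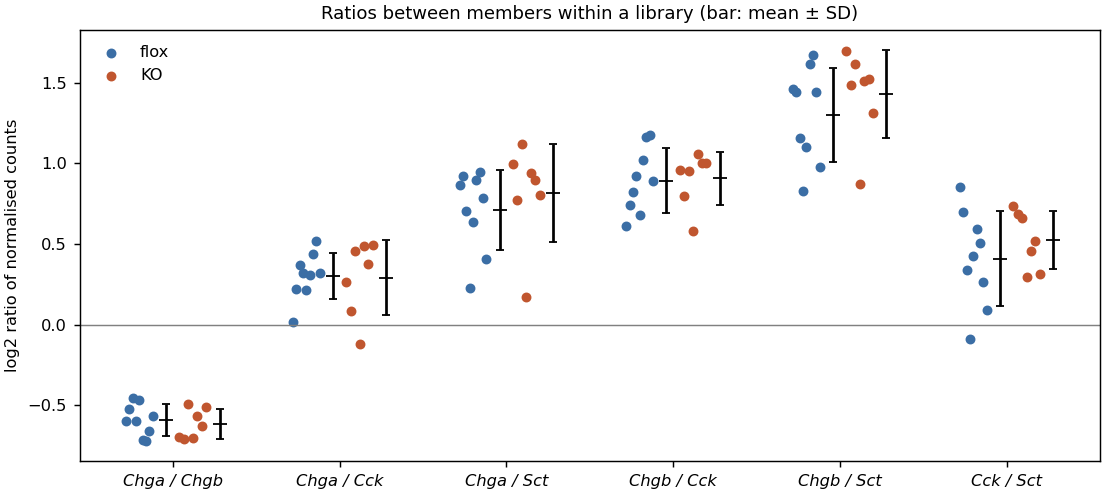
Log2 ratio of normalised counts between members within each library (y axis) for the 6 pairs of members, with points for flox and KO libraries and bars for mean ± SD. The groups overlap in every pair, and the ratio of Chga to Chgb has the smallest spread.

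The members varied together from library to library in flox, and in part in KO. Over the 9 flox libraries, Pearson's r of the log2 values ran from 0.83 to 0.96 over the 6 pairs (exact permutation p from 0.000152 to 0.00491, adjusted p from 0.00243 to 0.0112 over 16 relations), and Spearman's rho ran from 0.67 to 0.92 (exact permutation p from 0.00131 to 0.0589). Chga and Chgb were the closest pair, and their r was 0.91 without the 2 libraries farthest from the median of Chga, flox replicates 1 and 4. Chgb and Cck went from 0.83 to 0.56 and Chgb and Sct from 0.84 to 0.62 without flox replicates 2 and 4, so these relations rested in part on those libraries. Over the 7 KO libraries r ran from 0.60 to 0.93 (exact permutation p from 0.00238 to 0.150, adjusted p from 0.00762 to 0.200) and rho from 0.68 to 0.89 (exact permutation p from 0.0123 to 0.110). Of the 6 pairs, Chga with Chgb, Chgb with Cck, and Cck with Sct passed there after adjustment, with an r of 0.93, 0.89 and 0.88. Chga with Cck, Chga with Sct and Chgb with Sct did not (r of 0.72, 0.60 and 0.71, adjusted p 0.127, 0.200 and 0.127), and Chgb with Sct fell to 0.26 without KO replicates 5 and 7. The pairs that passed were also taken without the 2 KO libraries farthest from the median of the gene named first. There r was 0.99 for Chga with Chgb, 0.54 for Chgb with Cck and 0.78 for Cck with Sct. All such relations share the size factor and depth of each library.

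**Figure D3:**
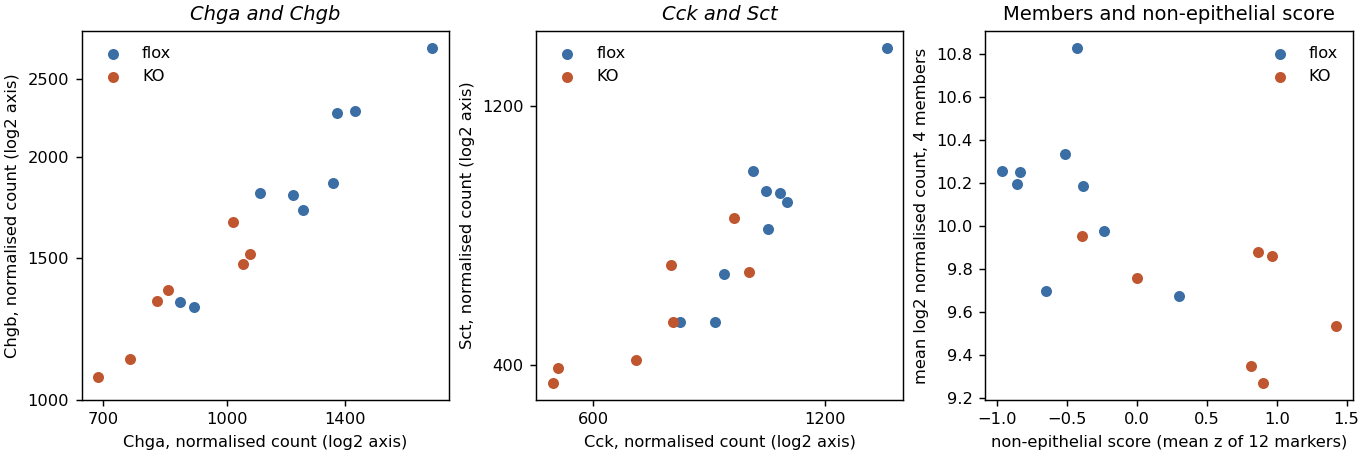
Normalised counts of Chgb against Chga and of Sct against Cck, each on log2 axes, and the mean log2 count of the 4 members against the non-epithelial score (mean z of 12 markers), 1 point per library. Flox replicate 4 is the highest library in both member plots. Most KO libraries have a higher non-epithelial score than the flox libraries, and its 12 markers were all listed as higher in KO.

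The genes most like the members were found by correlating deviations from the group means over the 16 libraries, among the 1956 listed genes whose mean reached 50, as a description with no test. For Chga the closest gene was Chgb (0.95) and for Chgb it was Chga, each followed by CAAA01118383.1, a gene with no name beyond its identifier (0.91 and 0.89). The third was Tmem160 (0.89) for Chga and Cenpb, a centromere protein (0.88), for Chgb. For Cck the closest were Fam173a (0.90), Cenpb (0.89) and the acetyltransferase gene Nat9 (0.89), with Sct in rank 4 (0.88). For Sct the closest were Gpt, an alanine aminotransferase (0.92), Cenpb (0.92) and Acaa1a, a peroxisomal thiolase (0.91), ahead of Cck in rank 7 and Gip in rank 8. For the mean of the 4 members, Cenpb (0.95), Fam173a (0.93), Acaa1a (0.89), CAAA01118383.1 (0.89) and Tmem160 (0.88) were closest, and the incretin Gip was in rank 8 (0.87). For Chga, the hormones Sct and Cck were in rank 18 (0.83) and rank 41 (0.79), and for Chgb, Cck and Sct were in ranks 16 and 17 (0.81 and 0.80). Apart from the pair of chromogranins, genes outside the hormone list were thus closest to each member.

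Of 21 hormones and granule cargo genes of enteroendocrine cells, 5 were listed and all 5 were lower: the 4 members and Gip, the incretin of duodenal K cells. Since the members came from the list of called genes, the count apart from them is 1 of 17 (5.88%), beside 7.81% of all genes listed as lower. Gip was 1878 ± 600 in flox (SD, n = 9) and 1370 ± 200 in KO (SD, n = 7), with a limma difference of -0.41 ± 0.15 (SE), an adjusted p of 0.117 and an exact permutation p of 0.0215. In limma 2 of the 5 passed. Gip, like the members, was listed as lower on these libraries, so the selection made small differences between them more likely. Within a library none of the 4 members changed detectably against Gip. The differences in the log2 ratio were -0.17 to -0.04 (smallest exact permutation p 0.167, for Sct). Without flox replicate 4 they were -0.15 to -0.08, and without the pancreatic libraries that of Cck was -0.19. The other 16, among them the hormones Gcg, Nts, Sst, Ghrl and Tac1 and the serotonin enzyme Tph1, were not listed and not analysed here.

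Of 18 transcription factors of the lineage, 1 was listed and higher, Rfx3, a ciliary and endocrine factor. It was 64.1 ± 8.39 in flox (SD, n = 9) and 83.5 ± 14.2 in KO (SD, n = 7). For Rfx3 limma gave an adjusted p of 0.103, and the exact permutation p was 0.000699, smaller than that of any member. The highest flox value was 74.9 and the lowest KO value 71.5. The lineage drivers Neurog3 and Neurod1 were not listed. Of 24 genes of prohormone processing and granule machinery, such as the convertase gene Pcsk1, 0 were listed. Of 19 nutrient sensor genes 1 was listed and lower, Cd36, a fatty acid translocase that enterocytes also express. It was 2475 ± 784 in flox (SD, n = 9) and 1569 ± 685 in KO (SD, n = 7). For Cd36 limma gave an adjusted p of 0.0956, and the exact permutation p was 0.0256. Of the 3 receptors of the member hormones, Cckar, Cckbr and Sctr, 0 were listed. Over these 85 pathway genes 8.24% were listed, beside 14.8% of all genes adjusted over. The members are counted in that share and came from the list of called genes, so the selection raised it. Apart from the members, only Gip, Rfx3 and Cd36 were listed. Genes that were not listed may have missed the authors' threshold or not have been tested.

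Some markers of other cells were higher in KO. Of 56 marker genes for endothelium, stroma, mast cells and lymphocytes, 12 were listed (21.4%), each of them higher in KO. Of all 16488 genes adjusted over, 1150 were listed as higher. Of the 11 markers fitted in limma 3 passed, the lymphocyte factor Tcf7, the mast cell protease Mcpt1 and the endothelial Pecam1. The other 8 had an adjusted p of up to 0.157, and 449 of all 2339 genes fitted passed as higher. The summed level of the 12 listed markers ran from 789.2 to 2008 normalised counts in flox and from 944.4 to 3699 in KO. Within groups the mean of the 4 members had an r of -0.38 with the score of these markers in flox (exact permutation p 0.307, rho -0.45, exact permutation p 0.230) and of -0.49 in KO (exact permutation p 0.272, rho -0.39, exact permutation p 0.396). Without the 2 libraries farthest from the median score r was 0.09 in flox and 0.01 in KO. None of these 4 tests passed (adjusted p of Pearson's r 0.351 and 0.334). With the score as a covariate the differences were -0.18 ± 0.20 (SE) for Chga, -0.15 ± 0.21 for Chgb, -0.18 ± 0.19 for Cck and -0.28 ± 0.34 for Sct, and 0 members passed limma, with 0 at an unadjusted p under 0.05 and 0.171% of genes passing as lower. The score was built only from the 12 listed markers, all called higher in KO on these same libraries. It thus followed the groups by construction, with a mean of -0.51 in flox and 0.65 in KO. Smaller differences under this covariate were favoured in advance, and the fit cannot separate the score from genotype.

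Exocrine pancreas transcripts marked 5 flox libraries, replicates 4, 6, 7, 9 and 10. Of 34 exocrine markers 24 were listed (70.6%, beside 7.81% of all genes listed as lower), all lower in KO. In limma 0 of the 23 fitted passed, 10 had an unadjusted p under 0.05, and the calls were 14 in edgeR and 23 in DESeq2. Without Zg16, which goblet cells express, their sum ran from 7276 to 151113 normalised counts in these 5 libraries and from 399.2 to 1784 in the other 11. Chgb had a median of 2266 in these 5 flox libraries, 1519 in the other 4 and 1369 in KO. For Chga the medians were 1371, 1075 and 841.9, for Cck 1007, 957.5 and 757.8, and for Sct 837.1, 640.2 and 480.5. Without the 5 libraries the limma difference was -0.29 ± 0.15 (SE) for Chga, -0.18 ± 0.14 for Chgb, -0.38 ± 0.17 for Cck and -0.32 ± 0.22 for Sct, 0 members passed after adjustment, and 1 had an unadjusted p under 0.05. Of all genes fitted 0.257% passed as lower there. Islet cells also make chromogranins. Of 12 islet markers, among them Ins1 and Ins2, 0 were listed, so their levels were not analysed here. Of 22 markers of enteric neurons and glia, which also make chromogranins, 1 was listed and higher in KO, Stmn2, at 0 to 3.09 in flox and 0 to 54.3 in KO. The part of these other cells in the members' differences was not tested.

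Of 16 markers of mature enterocytes 7 were listed (43.8%), all lower in KO, beside 7.81% of all genes listed as lower, and 6 of the 7 passed limma. Of 10 goblet cell markers 2 were listed (20%), both lower, and neither passed limma (adjusted p 0.0517 for Fcgbp and 0.0994 for Zg16). Of 10 tuft cell and 8 Paneth cell markers 0 were listed. Villin (Vil1), the actin bundling protein of the brush border, was 59914 ± 6409 in flox (SD, n = 9) and 47474 ± 5150 in KO (SD, n = 7), 1.26-fold apart with no overlap. Across libraries the mean of the 4 members had an r of 0.13 with Vil1 in flox (exact permutation p 0.733, rho 0.05, exact permutation p 0.912) and of 0.45 in KO (exact permutation p 0.350, rho 0.79, exact permutation p 0.0480). The adjusted p of r were 0.733 and 0.373 over the 16 relations, and without the 2 libraries farthest from the median of Vil1 r was 0.20 and 0.89. Vil1 too was listed as lower on these libraries, so the selection made small differences in ratios to it more likely. Set against Vil1 within a library, the log2 ratio of the members differed by -0.14 ± 0.15 (SE) for Chga, -0.12 ± 0.16 for Chgb, -0.13 ± 0.15 for Cck and -0.25 ± 0.21 for Sct. None of these 4 ratios passed an exact permutation test (p from 0.279 to 0.485, adjusted p 0.784). Without flox replicate 4 they were -0.08, -0.05, -0.07 and -0.13, in the same order. Without the flox libraries with pancreatic transcripts they were 0.02, 0.13, -0.07 and -0.02, so that Chga and Chgb turned sign (exact permutation p from 0.448 to 0.942).

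**Figure D4:**
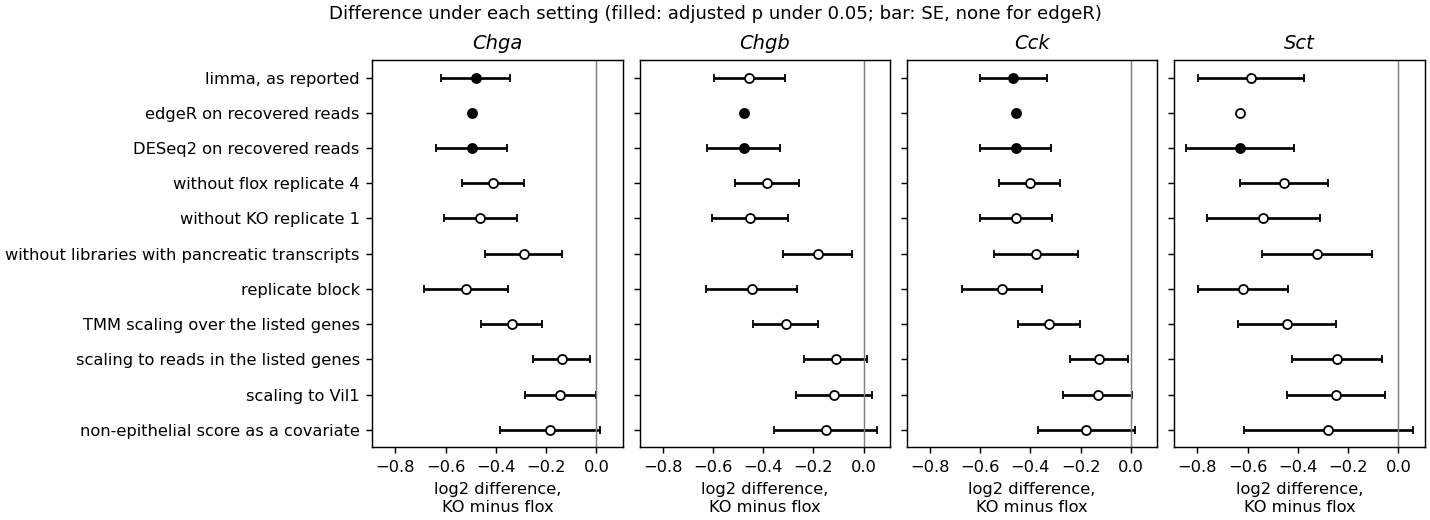
Log2 difference of KO minus flox (x axis) for each member under 11 settings (y axis), with SE bars where the tool gives one. Every value is below 0, and filled points, with an adjusted p under 0.05, occur only for limma on all libraries, edgeR and DESeq2 among the settings drawn.

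The calls depended on which libraries and which scale were used. Leaving out any of flox replicates 3, 4, 5, 7, 9 and 10 or KO replicates 1, 5 and 7 ended the call of both Chga and Cck, KO replicate 4 that of Chga, and KO replicate 8 that of Cck. Calls also fell over all genes: of the 2339 fitted, 820 passed as lower with all libraries, and 365 to 751 in these fits. Without flox replicate 4, the highest library, the differences were -0.41 for Chga, -0.38 for Chgb, -0.40 for Cck and -0.46 for Sct, with adjusted p of 0.0593, 0.0841, 0.0603 and 0.144 in limma. TMM scaling over the listed genes moved the median of all genes fitted by 0.14, and scaling to the reads in listed genes moved it by 0.34, from a median of -0.25. Under them the members' differences were -0.44 to -0.31 and -0.24 to -0.11, all still below 0. Both scalings were computed only from genes called on these same libraries, 1288 listed as lower and 1150 as higher. Smaller differences under them were thus favoured in advance. In both 0 members passed limma, where 8.08% and 1.07% of genes passed as lower, with 4 and 0 members at an unadjusted p under 0.05.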

How the data were processed

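Messenger RNA sequencing of 16 libraries was analysed from the authors' deposited table. The submitters' processing notes name DESeq2 1.20.0, featureCounts 1.5.0-p3 and HISAT2 2.0.5 on GRCm38 (mm10), without their settings. The deposited signal is the read count of a gene divided by a size factor, as the values showed: 100% of nonzero values were whole multiples of 1 step per library within 0.0001 reads, and size factors ran from 0.878 to 1.38. The deposited table also holds the authors' log2 fold change, p-value and adjusted p-value, and only genes with an adjusted p up to 0.0497. Its adjustment ran over 16488 genes, recovered from those p-values.

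limma 3.58.1, with robust moderation and a trend of variance on mean, was fitted to log2(normalised count + 1) of the 2339 genes whose mean reached 10. Benjamini-Hochberg adjustment of the two-sided p-values ran over 16488 genes, with unlisted genes set to a p of 1, and calls are at an adjusted p under 0.05. A fold on this scale understates the change of low genes. For single values and ratios, exact permutation tests (two-sided) covered all 11440 assignments of libraries to groups. edgeR 4.0.16 and DESeq2 1.42.0 were run on the recovered reads, and each tool was tested on simulated data. edgeR called 494 genes higher and 821 lower. The automatic check of the recovered reads did not cover KO replicates 1 and 3, so edgeR was also run without them. No 2 libraries of a group were duplicates (smallest chi-square per degree of freedom 17.2).

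The members and gene lists were chosen with earlier results of these data known. Named genes were the members, all listed genes of a list with 5 or fewer listed genes (for larger lists counts only, with Vil1 as the reference for the epithelium and Zg16 named where it was left out), and the genes most alike by the stated correlation. Gene names came from the deposited table, and promoter sequences from RefSeq on GRCm38.p6. Libraries carried the same replicate numbers in both groups for 6 numbers. The deviations of same-numbered libraries correlated from -0.43 to 0.37, so the numbers were not taken as pairs.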

Additional observations from a re-analysis of the deposited data

Results flagged for a closer look

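Among 46 groups of values examined, 7 had a highest or lowest library whose gap to the others exceeded Dixon's 95% critical value, and chance gives about 1 in 20 groups. Flox replicate 4 was high for Cck at 1444 (next 1072), for Sct at 1537 (next 909.6) and for Gip at 3318 (next 1968). It was also the highest for Chga and Chgb, where the gap was smaller than the critical value. KO replicate 1 was low for Vil1 at 36391 (next 46595) and high for Ephb4 at 84.7 (next 37.3), and its summed level of non-epithelial markers was the highest of all libraries at 3699. KO replicate 4 was low for the log2 ratio of Chga to Sct at 0.17 (next 0.77) and high for the log2 ratio of hormones to granule proteins at -0.38 (next -0.79), with 746.7 normalised counts of Sct, the highest in KO, beside 841.9 of Chga.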

How the results depend on the processing

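Over 31 settings other than the reported one, all 124 values of the 4 members stayed below 0. Of these, 80 stayed on their side of the threshold, 38 lost the call and 6 gained it. The reported limma differences were -0.48 for Chga, -0.45 for Chgb, -0.47 for Cck and -0.59 for Sct, with 2 members passing. Chga and Cck lost the call in these settings, with values in that order: TMM scaling -0.34 and -0.33, scaling to reads in the listed genes -0.14 and -0.13, scaling to Vil1 -0.14 and -0.13, the non-epithelial covariate -0.18 and -0.18, without the libraries with pancreatic transcripts -0.29 and -0.38, without KO replicates 1 and 3 -0.51 and -0.47, and edgeR without those 2 libraries -0.52 and -0.45. In each of these settings 0 of the 4 members passed, and the numbers with an unadjusted p under 0.05 were, in the same order, 4, 0, 0, 0, 1, 3 and 4. In no setting was the share of all genes with such a p counted. Of the 2339 genes fitted (2338 for scaling to Vil1), 189, 25, 16, 4, 6, 307 and 239 passed as lower, beside 820 in the reported fit. The scalings and the covariate used only genes called on these same libraries, which favoured smaller differences in advance. Chgb gained the call in edgeR (-0.48, where 3 members passed) and, with Sct, in DESeq2 (-0.48 and -0.63, where 4 passed). The DESeq2 run nearly repeats the authors' own test. With the replicate block on the 12 libraries whose number occurs in both groups, Chga was -0.52 and Cck -0.51, and 0 members passed. The same 12 libraries with no block gave -0.52 and -0.51 and also 0, with 4 at an unadjusted p under 0.05 in both fits. Of the 2339 genes fitted, 4 passed as lower with the block and 252 without it. Leaving out 1 library at a time gave -0.54 to -0.41 for Chga, -0.52 to -0.38 for Chgb, -0.54 to -0.40 for Cck and -0.68 to -0.46 for Sct, with 0 to 3 members passing. Of the 2339 genes fitted, 365 (without KO replicate 7) to 902 (without flox replicate 2) passed as lower, beside 820 with all libraries. Chga and Cck each lost the call in 10 of 16 such fits, and Chgb gained it in 3. The cause of these losses was not tested. Pseudocounts of 0.5 and 10, no filter and a minimum mean of 50 changed no call. The pancreatic libraries were defined after seeing the data, leaving out Zg16, because with it no library passed 10 times the median, so that planned setting gave no value. The 12-library fit with no block and the edgeR run without 2 libraries were also added after seeing the data. Total depth is unknown, so counting error over all genes could not be set beside these differences.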
